A study of Mus musculus with 2 samples.

Results

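The guanylate-binding proteins (GBPs) and the immunity-related GTPases (IRGs) were followed across the cells of Hepa1-6 tumours, which grow from a mouse hepatoma line. The set holds 10 of the 32285 genes counted: Gbp2, Gbp2b, Gbp3, Gbp4, Gbp5, Gbp6, Gbp7, Iigp1, Tgtp1 and Igtp. They were found by symbol, and the set was chosen by measured values of these same libraries, so every level and ratio given here is a description and none was tested. The CD147-LYTACs library came from tumours of mice given CD147-LYTACs, lysosome-targeting chimaeras directed at the surface protein CD147, at 40 mg/kg every 3 days in 4 doses. The control library came from Hepa1-6 tumours labelled control, with no vehicle named. In both, tumours were taken on day 12, and cells sorted as CD45-negative and CD45-positive were mixed again at 1 part to 3 parts before droplet single-cell sequencing. The labels leave the route open between intraperitoneal and intravenous and do not say how many mice were pooled.

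Both GTPase families are among the genes that interferon-gamma induces most strongly in mouse cells, in part through the factor IRF1. GBPs are large GTPases of the dynamin superfamily that gather on vacuoles of parasites and on bacteria in the cytosol, where they help to open membranes and to start inflammasome signalling. IRGs act on the same vacuoles: Iigp1 (also called Irga6) and Tgtp1 (Irgb6) are effectors that load onto them, whereas Igtp (Irgm3), Irgm1 and Irgm2 are regulators that hold the effectors inactive on the cell's own membranes. In tumours their transcripts are read mainly as a trace of interferon exposure.

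In these tumours most of the members deep enough to compare were lower with CD147-LYTACs in neutrophils, monocytes and macrophages, and none differed by 1.5-fold in hepatoma cells and CD8 T cells. Of the members with at least 100 UMIs (unique transcript molecules) over both libraries, 5 of 5 in neutrophils, 5 of 6 in monocytes and 7 of 8 in macrophages were at least 1.5-fold lower in the CD147-LYTACs library. Over all genes tested, 17.5% were that much lower in neutrophils, 9.36% in monocytes and 7.99% in macrophages. In conventional dendritic cells 1 of 7 members was, against 7.57% of genes. In hepatoma cells 0 of 9 members and in CD8 T cells 0 of 8 were lower by that much, against 2.35% and 1.11% of genes, and 0 were higher. Each group is 1 library, so no difference has a replicate check, and intervals cover counting error only.

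RefSeq promoters (GRCm38.p6, 250 bases before to 50 after a start site) were examined for 7 of the 10 members. All 7 members held a motif of the kind bound by interferon regulatory factors. That motif, searched as TTTCNNTTTC or, on the other strand, GAAANNGAAA (ISRE-type), occurs in 3.44% of 32851 mouse promoters of the same length. The motif TTCNNNGAA, which reads the same on both strands (GAS-type, for gamma-activated site), occurred in 4 of the 7, against 8.30% of all promoters. Matches of the ISRE type and the GAS type did not overlap in these sequences. The stretches around them are shown because the ISRE-type motif was in the promoters of all 7 members examined. The promoters of Gbp4, Gbp6 and Iigp1 were not examined, so the count does not cover these genes. Capitals mark the motif matches, and each line reads 5′ to 3′ on the gene's strand.
Gbp2, chr3:142620584-142620633, plus strand: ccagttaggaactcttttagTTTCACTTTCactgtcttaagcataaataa
Gbp2b, chr3:142594690-142594739, plus strand: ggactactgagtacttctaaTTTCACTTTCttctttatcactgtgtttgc
Gbp3, chr3:142559979-142560034, plus strand: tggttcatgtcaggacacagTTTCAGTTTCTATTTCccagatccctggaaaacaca
Gbp5, chr3:142496684-142496910, plus strand: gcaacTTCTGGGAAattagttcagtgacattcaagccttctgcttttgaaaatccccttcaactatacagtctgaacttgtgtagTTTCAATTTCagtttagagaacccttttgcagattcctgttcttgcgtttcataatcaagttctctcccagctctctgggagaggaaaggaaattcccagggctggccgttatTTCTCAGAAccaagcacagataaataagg
Gbp7, chr3:142530210-142530312, plus strand: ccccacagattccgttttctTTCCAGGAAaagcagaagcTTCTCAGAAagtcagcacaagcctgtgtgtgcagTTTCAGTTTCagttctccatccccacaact
Igtp, chr11:58199491-58199551, plus strand: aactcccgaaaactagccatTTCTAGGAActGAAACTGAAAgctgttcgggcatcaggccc
Tgtp1, chr11:48992294-48992354, minus strand: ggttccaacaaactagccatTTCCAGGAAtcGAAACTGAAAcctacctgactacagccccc

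Gbp2 and Gbp2b carry the ISRE-type match alone, Gbp3 carries overlapping matches of it, and Gbp5, Gbp7, Igtp and Tgtp1 carry both kinds. In Igtp and Tgtp1 a GAS-type match stands just before an ISRE-type match. Outside the members, both motifs were also found in the promoters of Irgm2, Tgtp2 and Gm12250, whereas that of Irgm1 held the ISRE type alone. A second Gbp3 start site in the same table held neither. A match is a stretch of letters and not a measured binding site.

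The members lie in a few gene clusters (GENCODE M21, GRCm38). Gbp5, Gbp7, Gbp3, Gbp2b and Gbp2 follow each other on the plus strand within 144 kb of chromosome 3, from 142493978 to 142638008. Gbp4 (105115767 to 105139586) and Gbp6 (105270702 to 105293698) lie on the minus strand of chromosome 5. Tgtp1 (minus strand, 48985327 to 48994172) and Igtp (plus strand, 58199556 to 58207591) are on chromosome 11, and Iigp1 (plus strand, 60376027 to 60392634) is on chromosome 18. All are protein-coding.

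After filtering, 7641 CD147-LYTACs cells and 6689 control cells remained, and marker gates, by which the types are named, gave 9 cell types that held 50 or more cells in both libraries. Their cell numbers are given as CD147-LYTACs and then control: hepatoma cells (2070 and 1920), CD8 T cells (1858 and 2531), conventional CD4 T cells (171 and 260), regulatory T cells (65 and 86), NK cells (86 and 85), neutrophils (1160 and 144), monocytes (226 and 57), macrophages (371 and 128) and conventional dendritic cells (78 and 106). The hepatoma gate rests on Krt18 (2857 and 2477 CPM), Krt8 (1827 and 1730 CPM) and Afp (203 and 210 CPM), while the other 9 liver markers on the list stayed below 2 CPM. Cells with markers of several lineages were left out of all types and made up 5.14% of CD147-LYTACs and 1.41% of control cells. Of the filtered barcodes, 18 occurred in both libraries.

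Levels are UMIs of a gene in counts per 1e6 UMIs of the cell type (CPM) and are compared between cell types within a gene, not between genes. Gbp2, which is recruited to vacuoles of the parasite Toxoplasma in mouse cells, was highest in hepatoma cells with CD147-LYTACs (568 CPM) and in monocytes in the control library (629 CPM). It stayed high in neutrophils, macrophages and conventional dendritic cells and was between 29.4 and 42.7 CPM in CD8 T, conventional CD4 T and NK cells of either library. In the control library monocytes and hepatoma cells, and hepatoma cells and neutrophils (568 CPM), did not differ beyond their counting intervals.

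Gbp2b, known earlier as mouse Gbp1, was largely a macrophage gene. It stood at 18.99 CPM (95% interval 13.6 to 25.8) in CD147-LYTACs macrophages and 111 CPM (91.4 to 134) in control macrophages. No other cell type of the 9 passed 10.5 CPM, the level in control conventional dendritic cells. In both libraries macrophages stood above the next type beyond the counting intervals. The 7 neighbouring pairs below them overlapped.

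Gbp3 was highest in regulatory T cells, at 173 CPM with CD147-LYTACs and 167 CPM in the control library, and lowest in CD147-LYTACs neutrophils (14.1 CPM) and control conventional CD4 T cells (24.2 CPM). In NK cells it reached 82.9 and 88.2 CPM. Gbp7, like Gbp3, peaked in regulatory T cells, at 158 and 184 CPM, and spread least of the members: its highest type was 3.90 times its lowest with CD147-LYTACs and 3.84 times in the control library. Gbp5, which promotes assembly of the NLRP3 inflammasome in mouse macrophages, was highest in monocytes (125 and 254 CPM) and macrophages (110 and 181 CPM). It was also clear in NK cells, at 92.9 and 92.3 CPM, and lowest in conventional CD4 T cells, at 12.8 and 17.1 CPM.

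Gbp4 changed its order between the libraries: regulatory T cells stood first with CD147-LYTACs (108 CPM), and monocytes (233 CPM) and macrophages (181 CPM) stood first in the control library. With CD147-LYTACs 7 of the 8 neighbouring pairs in that order overlapped. In the annotation Gbp4 overlaps its relatives Gbp8 and Gbp9 on the same strand, and the handling of reads in that overlap is not stated. Gbp6 was at 65.1 and 67.6 CPM in hepatoma cells and 70.2 and 63.8 CPM in regulatory T cells, and under 11 CPM in conventional dendritic and NK cells. Its transcript shares 88.3% of its 61-base windows with other genes, mainly a predicted gene and Gbp10, so reads may have been lost or split between copies.

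The effector Iigp1 stood at 399 CPM with CD147-LYTACs and 422 CPM in control hepatoma cells, against 5.10 and 5.36 CPM in CD8 T cells. Its highest type was 78.2 times its lowest with CD147-LYTACs, where CD8 T cells were lowest. The multiple was 100.5 in the control library, where the lowest were NK cells, with only 2 UMIs of Iigp1 (4.20 CPM). In fibroblast or mural cells, of which there were only 36 and 18, it reached 680 CPM (612 to 753) and 927 CPM (822 to 1040.4). Tgtp1, the other effector, was highest in hepatoma cells with CD147-LYTACs (26.9 CPM) and in neutrophils in the control library (52.2 CPM, against 31.5 CPM in control hepatoma cells). CD8 T cells held 1.55 and 1.79 CPM, and 0 UMIs were seen in NK cells of either library. Tgtp1 shares 89.8% of its windows with other genes, mainly its neighbour Tgtp2, so its counts may belong to either copy. If all Krt8, Krt18, S100a8 and S100a9 in CD8 T cells came from hepatoma cells and neutrophils, the same carry-over would give 3.43 and 3.88 CPM of Iigp1. The Iigp1 level of CD8 T cells was thus close to that background.

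Igtp, an IRG regulator, was highest in regulatory T cells in both libraries, at 368 CPM (321 to 421) and 293 CPM (255 to 336). Conventional CD4 T cells held 82.2 and 75.4 CPM and CD8 T cells 33.4 and 33.6 CPM. Among T cells the regulatory cells also held the highest levels of Gbp2, Gbp3, Gbp4, Gbp5, Gbp6, Gbp7 and Iigp1, in both libraries. Igtp overlaps Irgm2 in the annotation on the same strand, and the handling of reads in that overlap is not stated.

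**Figure D1:**
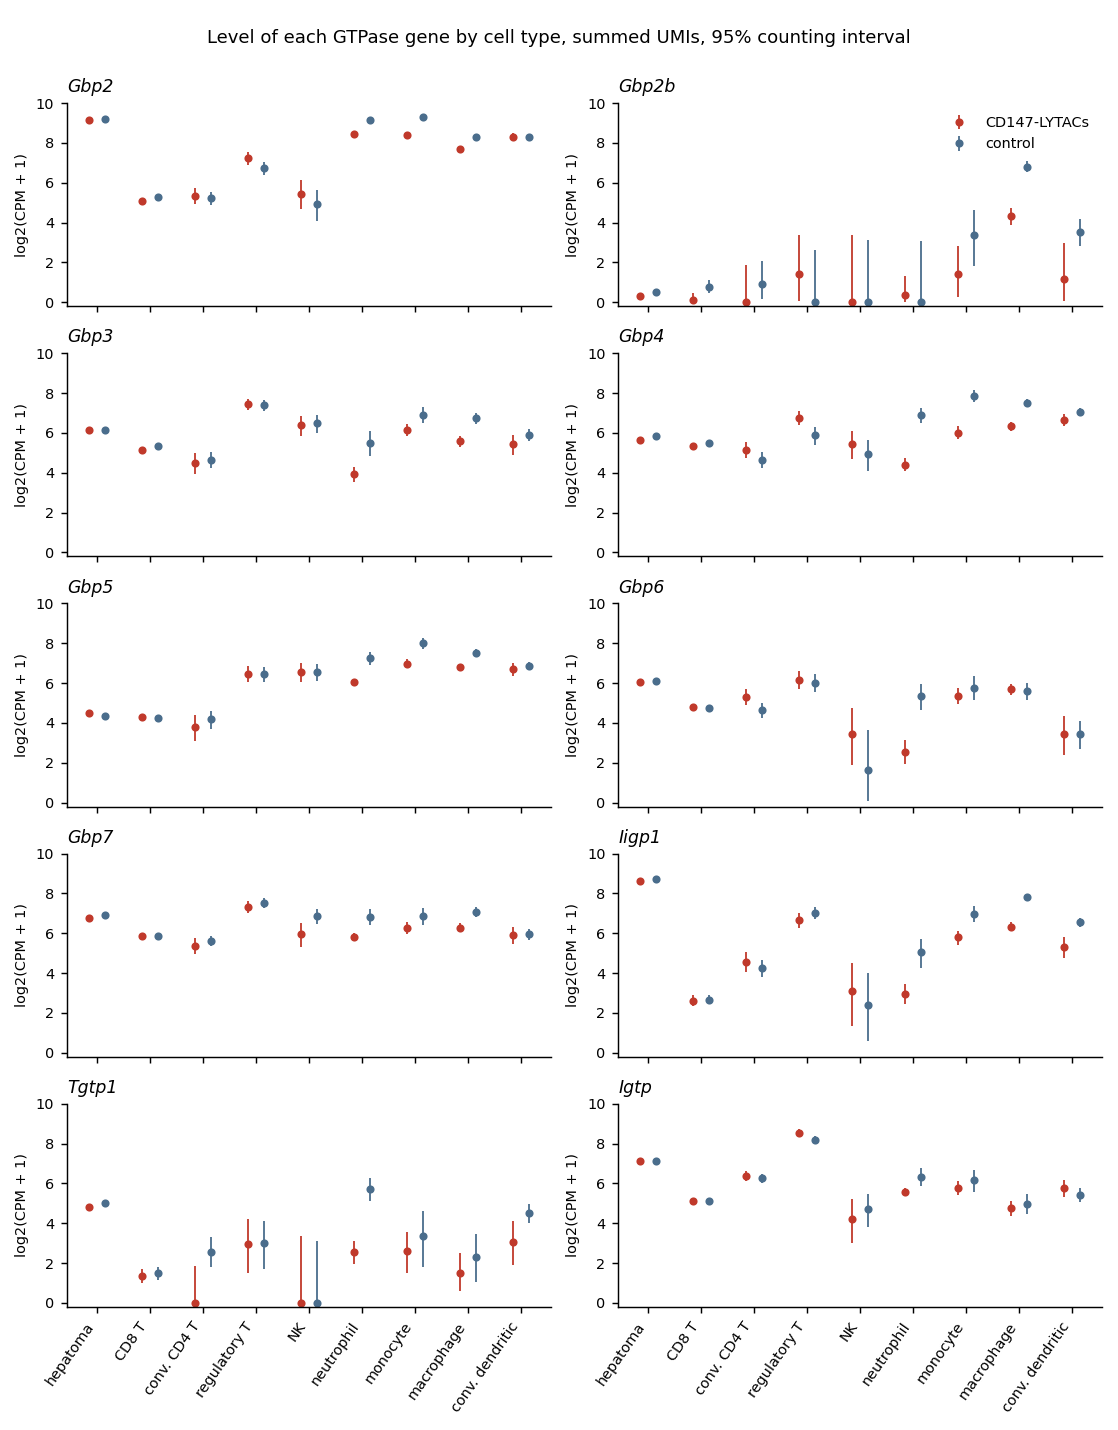
Level of each GTPase gene in 9 cell types, as log2(CPM + 1) of summed UMIs, CD147-LYTACs (left, red) beside control (right, blue); bars are exact Poisson 95% intervals of 1 library. Gbp2b stands out in macrophages, Iigp1 in hepatoma cells and Igtp in regulatory T cells, and the libraries part mostly in neutrophils, monocytes and macrophages.

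Neutrophils held less of every member with enough UMIs. Gbp2 was at 347 CPM (1280 UMIs) with CD147-LYTACs and 568 CPM (283 UMIs) in controls, log2 ratio -0.71 (-0.90 to -0.52). Gbp4 stood at 20.3 CPM (75 UMIs) against 118 CPM (59 UMIs), which is 5.82-fold lower with log2 ratio -2.54 (-3.05 to -2.02). The remaining 3 were Gbp5 (64.8 and 152 CPM, -1.24), Gbp7 (56.1 and 112 CPM, -1.0) and Igtp (46.9 and 80.3 CPM, -0.78). These 5 had a median of -1.0, against -0.12 over the 3667 genes tested in neutrophils, of which 17.5% were at least 1.5-fold lower and 7.91% higher. A neutrophil gene was thus often lower in this comparison, and 5 of 5 members were.

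The 5 members under 100 UMIs in neutrophils had less support. Tgtp1 was at 4.88 CPM (18 UMIs) with CD147-LYTACs and 52.2 CPM (26 UMIs) in the control library, and Gbp6 at 4.88 CPM (18 UMIs) and 40.1 CPM (20 UMIs). Gbp3 stood at 14.1 and 44.1 CPM, and Iigp1 at 6.77 and 32.1 CPM. Carry-over from hepatoma and T cells, scaled in the same way by Krt8, Krt18 and Cd8b1, would give 6.08 CPM of Iigp1 in CD147-LYTACs neutrophils and 8.49 CPM in control neutrophils. Gbp2b had 1 UMI and 0 UMIs. All 4 of the members with more than 1 UMI were lower in the CD147-LYTACs library.

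The neutrophils of both libraries also differed in other genes. All 9 neutrophil markers were detected in each, with a summed level of 42772 CPM with CD147-LYTACs and 56266 CPM in the control library. Retnlg, a gene of mature neutrophils, stood at 1158 and 2897 CPM, and Chil3, a gene of neutrophil precursors and monocytes, at 203 and 542 CPM. Of the 7 monocyte markers, 7 were at or above 1 CPM with CD147-LYTACs and 5 in the control library (Vcan and F13a1 at 0), and the sum was 548 and 1083 CPM. The 9 macrophage markers summed to 189 and 191 CPM, and C1qa was at 2.71 and 4.01 CPM. The part of neutrophil composition in the member values was not tested.

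Monocytes held less of the members' transcripts, 826 CPM (776 to 880) summed over the 10 genes with CD147-LYTACs against 1618 CPM (1499 to 1742) in the control library. Gbp4 was at 63.6 CPM (76 UMIs) against 233 CPM (100 UMIs), log2 ratio -1.87 (-2.32 to -1.43) and 3.67-fold lower. Iigp1 (54.4 and 126 CPM, -1.21), Gbp5 (125 and 254 CPM, -1.03), Gbp2 (336 and 629 CPM, -0.90) and Gbp3 (70.3 and 119 CPM, -0.76) were also at least 1.5-fold lower. Gbp7 missed that fold, at 77.0 and 114 CPM (-0.57). Over the 6 members tested the median was -0.97, against -0.02 over 2863 genes, of which 9.36% were at least 1.5-fold lower and 9.01% higher. Under 100 UMIs were Gbp6 (-0.42, -1.16 to 0.37), Igtp (-0.39, -1.03 to 0.29), Tgtp1 (6 and 4 UMIs) and Gbp2b (2 and 4 UMIs). Their intervals all include no difference. Other markers in the monocyte gate differed as well: the 9 macrophage markers, all detected, summed to 1604 CPM with CD147-LYTACs and 709 CPM in controls, and the 7 monocyte markers to 5322 and 3188 CPM. The 9 neutrophil markers summed to 315 and 420 CPM, with Cxcr2 at 0 with CD147-LYTACs, S100a9 and G0s2 at 0 in controls and Retnlg at 0 in both, while S100a8 stood at 109 and 11.7 CPM. Their part in the member values was not tested. Fewer cells of a state and less RNA per cell are not told apart by sums.

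Macrophages showed the same direction. Gbp2b was the most different, at 18.99 CPM (41 UMIs) with CD147-LYTACs against 111 CPM (112 UMIs) in controls, 5.85-fold lower with log2 ratio -2.55 (-3.10 to -2.02). Iigp1 stood at 79.7 CPM (172 UMIs) against 221 CPM (223 UMIs), log2 ratio -1.47 (-1.77 to -1.18). The others at least 1.5-fold lower were Gbp4 (80.1 and 181 CPM, -1.18), Gbp3 (47.3 and 106 CPM, -1.17), Gbp7 (76.9 and 133 CPM, -0.79), Gbp5 (110 and 181 CPM, -0.72) and Gbp2 (204 and 309 CPM, -0.60). Gbp6 was the exception, at 51.0 CPM (110 UMIs) and 47.6 CPM (48 UMIs), log2 ratio 0.10 (-0.40 to 0.62). Its interval includes no difference. The 8 members tested had a median of -0.98, against 0.01 over 4544 genes, of which 7.99% were at least 1.5-fold lower and 7.13% higher. Under 100 UMIs were Igtp (-0.24, -0.90 to 0.44) and Tgtp1 (4 and 4 UMIs, -1.10, -3.52 to 1.33). Their intervals also include no difference.

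Markers of other cells moved in the macrophage gate too. The 7 monocyte markers summed to 997 CPM with CD147-LYTACs (7 of them at or above 1 CPM) and 636 CPM in controls (6 of them), with Chil3 at 71.8 and 0.992 CPM and Ly6c2 at 66.2 and 16.9 CPM. The 9 neutrophil markers summed to 228 and 243 CPM, with Cxcr2 at 0 in controls, while S100a8 was at 53.3 and 6.94 CPM. The 9 macrophage markers, all detected, summed to 5724 and 6448 CPM, and C1qa, a complement subunit made by macrophages, was at 1195 and 1839 CPM. Their part in the member values was not tested.

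In conventional dendritic cells 1 of the 7 members tested passed 1.5-fold. Iigp1 was at 38.3 CPM (31 UMIs) with CD147-LYTACs and 92.8 CPM (142 UMIs) in controls, log2 ratio -1.28 (-1.89 to -0.71). Gbp2, at 315 and 309 CPM (0.03, -0.19 to 0.25), and Gbp7, at 59.3 and 60.8 CPM (-0.04, -0.57 to 0.48), were close to equal. Gbp4 (-0.38), Gbp5 (-0.17), Gbp3 (-0.50) and Igtp (0.35) all stayed under 1.5-fold. Of 3633 genes tested, 7.57% were at least 1.5-fold lower and 5.81% higher. Under 100 UMIs, Gbp2b (1 and 16 UMIs) and Tgtp1 (6 and 33 UMIs) stood at 1.24 and 10.5 CPM and at 7.42 and 21.6 CPM. The 9 macrophage markers in the dendritic gate summed to 265 CPM with CD147-LYTACs and 119 CPM in controls, with Trem2 at 0 in controls. The 7 monocyte markers summed to 733 and 762 CPM, with Arg1 at 37.1 and 0 CPM and Chil3 at 0 in both. Their part in the member values was not tested.

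In CD8 T cells and hepatoma cells the members tested gave small ratios. In CD8 T cells the 8 members tested ran from -0.21 (Gbp3, 34.6 and 40.0 CPM) to 0.08 (Gbp5, 18.9 and 17.8 CPM), with 1.11% of 10269 genes at least 1.5-fold lower and 1.97% higher. In hepatoma cells, where 143196 and 144567 member UMIs make counting error small, ratios ran from -0.23 (Tgtp1) to 0.13 (Gbp5, 21.2 and 19.4 CPM). Gbp2 stood at 568 and 584 CPM (-0.04) and Iigp1 at 399 and 422 CPM (-0.08). The median of the 9 members tested was -0.05, against -0.02 over 13686 genes, of which 2.35% were at least 1.5-fold lower and 1.48% higher. The hepatoma intervals of 7 of the 9 members leave out 0, but they hold no spread between tumours. Under 100 UMIs, Gbp2b had 1 and 14 UMIs in CD8 T cells (-3.43, -8.83 to -0.71). It had 24 and 39 UMIs in hepatoma cells (-0.75, -1.55 to 0.02). Tgtp1 had 24 and 36 UMIs in CD8 T cells (-0.21).

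In regulatory T cells the summed level was 1223 CPM with CD147-LYTACs and 1094 CPM in the control library, and 1 of 7 members tested was at least 1.5-fold higher. Gbp4 was at 108 CPM (63 UMIs) with CD147-LYTACs and 58.1 CPM (41 UMIs) in controls, log2 ratio 0.89 (0.30 to 1.5). Gbp2 stood at 149 and 105 CPM (0.51, 0.04 to 0.97) and Igtp at 368 and 293 CPM (0.33, 0.05 to 0.61), while Iigp1 was at 101 and 129 CPM (-0.35, -0.85 to 0.14). Among 2618 genes tested there, 3.74% were at least 1.5-fold higher and 6.61% lower. Macrophage markers in these cells summed to 44.5 CPM with CD147-LYTACs and 21.3 CPM in the control library, with 7 of 9 detected in each, Trem2 at 0 in both, C1qc at 0 with CD147-LYTACs and Adgre1 at 0 in the control library. Their part in the member values was not tested.

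In conventional CD4 T cells Gbp6 was at 39.0 CPM (55 UMIs) with CD147-LYTACs and 23.8 CPM (53 UMIs) in controls, log2 ratio 0.71 (0.14 to 1.28), and the other 4 members tested were under 1.5-fold. The background there was 1.84% of 5340 genes at least 1.5-fold higher and 3.41% lower. Under 100 UMIs in these cells, Tgtp1 had 0 and 11 UMIs and Gbp2b 0 and 2. Gbp3 (-0.19) and Gbp5 (-0.42) stood below 0 and Iigp1 (0.34) above it. NK cells had no member with 100 UMIs, and 5.75% of 1740 genes were at least 1.5-fold lower and 2.53% higher. Gbp7 was the NK cell member whose counting interval left out 0, at 60.3 CPM (24 UMIs) with CD147-LYTACs and 115 CPM (55 UMIs) in the control library.

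**Figure D2:**
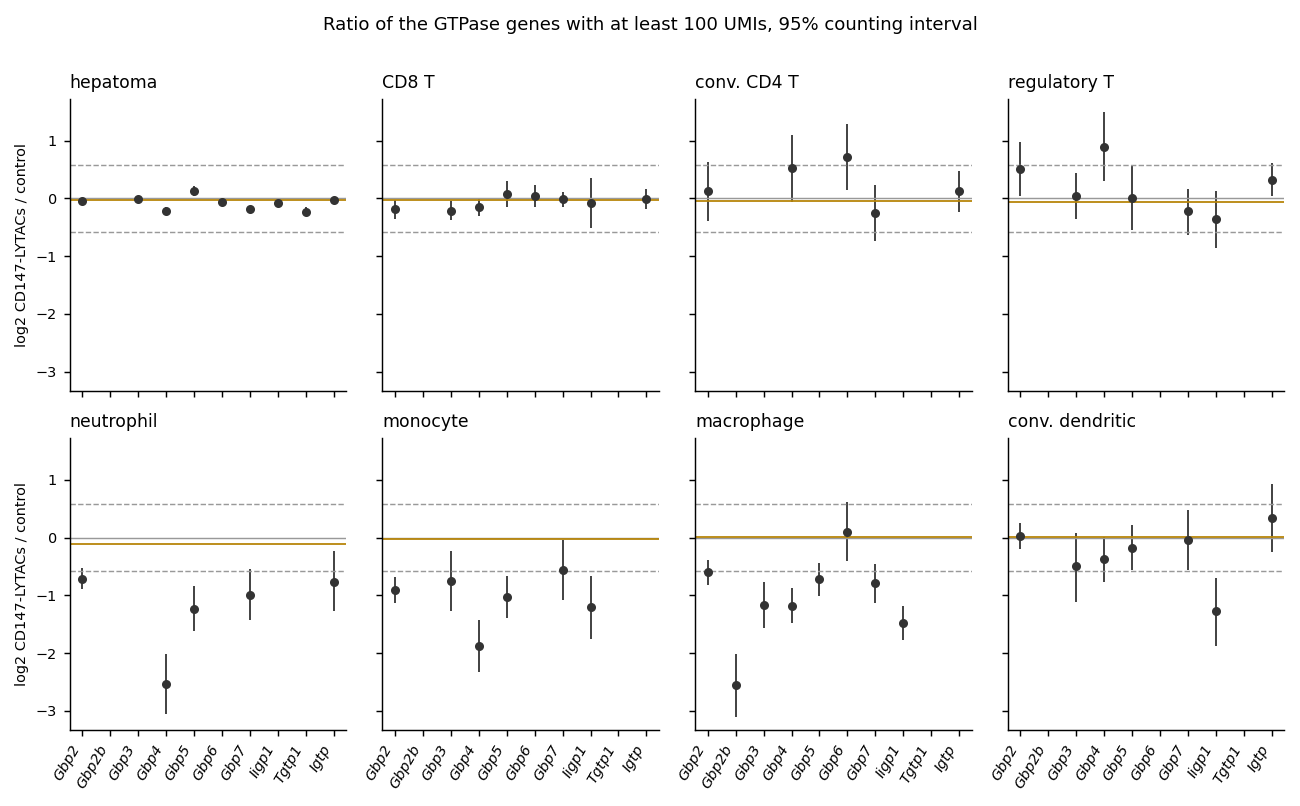
Log2 ratio of CD147-LYTACs over control for the members with at least 100 UMIs in each of 8 cell types, with exact 95% counting intervals; dashed lines mark 1.5-fold and the gold line the median of all genes tested. All points of neutrophils and monocytes lie below 0, whereas those of hepatoma and CD8 T cells lie near it.

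Monocytes with Arg1, which encodes arginase 1 and is a gene of suppressive myeloid cells, held low levels of the members and were more frequent with CD147-LYTACs. After each cell was thinned to 1000 UMIs, 42.5% (35.8 to 49.3) of CD147-LYTACs monocytes and 10.5% (3.96 to 21.5) of control monocytes held a UMI of Arg1, at median depths of 4449 and 7088 UMIs. Before thinning the shares were 55.3% and 14.0%. CD8 T cells, which should lack it, held it in 0.431% and 0.0395% of thinned cells. Arg1 is among the markers of the monocyte gate.

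The members summed to 314 CPM in Arg1-positive CD147-LYTACs monocytes (125 cells) and 639 CPM in the 8 such control cells. Without Arg1 the sums were 1534 CPM (101 cells) and 1765 CPM (49 cells), log2 ratio -0.20. In the cells without Arg1, Gbp2 was at 654 and 673 CPM (-0.04), Gbp3 at 124 and 137 CPM (-0.15) and Iigp1 at 114 and 142 CPM (-0.32). Gbp4 was still 2.05-fold lower there, at 130 and 266 CPM (-1.04, -1.51 to -0.57), and was the 1 of 6 members tested at least 1.5-fold lower, against 7.34% of 1690 genes. The split by Arg1 was chosen with earlier results of these libraries known, and its part in the monocyte ratios was not tested.

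Macrophages held less Gbp3 and Iigp1 with CD147-LYTACs in both of their states. Cells with Gpnmb or Trem2, genes of lipid-laden macrophages, made up 42.1% (36.8 to 47.5) of thinned CD147-LYTACs macrophages and 18.3% (11.9 to 26.4) of control ones, or 65.2% and 32.0% unthinned. Thinned CD8 T cells held these genes in 0.269% and 0.0791%. Among macrophages without them (129 and 87 cells), Gbp2b was at 26.4 and 188 CPM (-2.83), Iigp1 at 85.2 and 288 CPM (-1.76) and Gbp3 at 38.5 and 97.8 CPM (-1.34). Among macrophages with them (242 and 41 cells), Gbp4 was at 67.9 and 158 CPM (-1.22), Gbp3 at 49.8 and 115 CPM (-1.21) and Iigp1 at 78.1 and 149.8 CPM (-0.94). Of the 6 members tested among macrophages without Gpnmb or Trem2, 5 were at least 1.5-fold lower, against 8.94% of 1924 genes. No such share over all genes was counted for macrophages with Gpnmb or Trem2.

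Gbp2b followed macrophage state in the control library. It stood at 26.4 CPM with CD147-LYTACs and 188 CPM in control cells without Gpnmb or Trem2, and at 16.8 and 28.7 CPM in cells with them. Conventional dendritic cells with Cd209a, a marker of the monocyte-related kind, were only 12 and 17, and Iigp1 stood at 7.36 CPM (1 UMI) and 160 CPM (27 UMIs) in them. In CD8 T cells the members summed to 229 and 249.97 CPM in cells with Mki67 or Top2a, genes of dividing cells, and 274 and 279 CPM in those without. With Pdcd1, which encodes PD-1, the sums were 241 and 249.88 CPM, and without it 288 and 320 CPM.

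**Figure D3:**
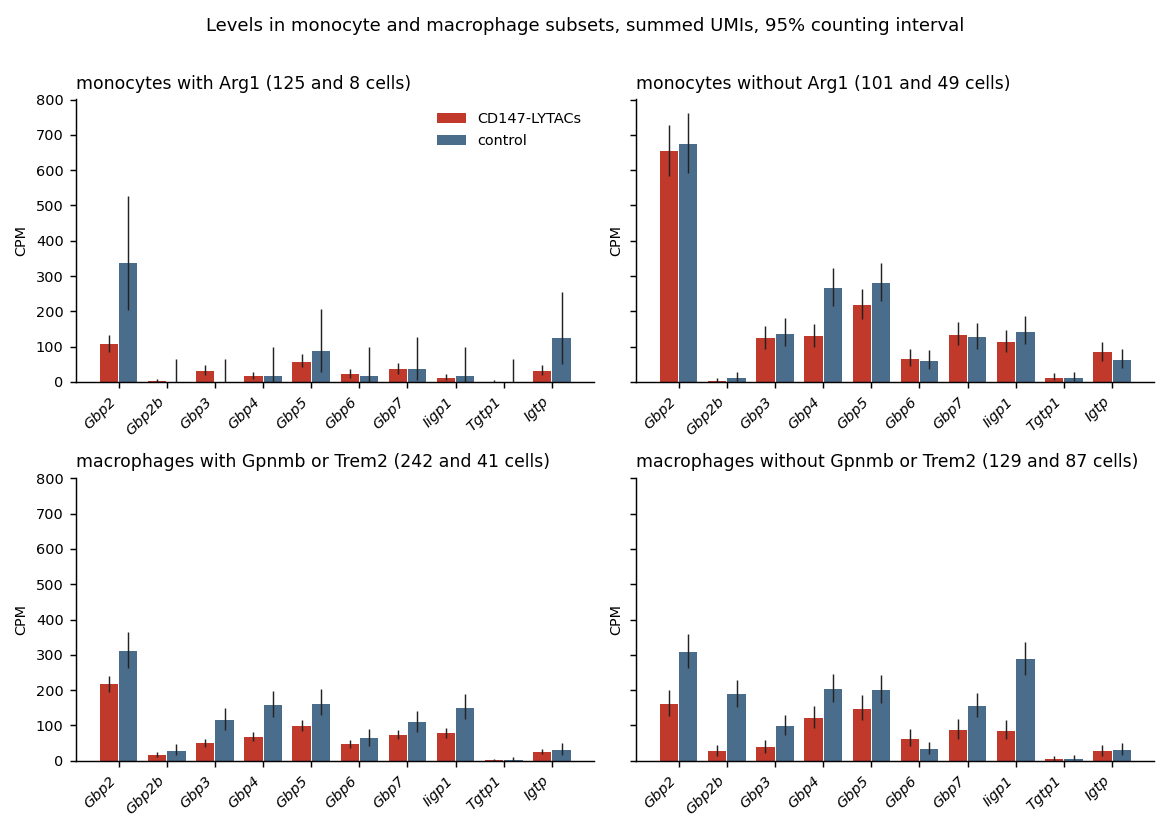
CPM of the 10 GTPase genes in monocytes with and without Arg1 and macrophages with and without Gpnmb or Trem2, CD147-LYTACs (left bar, red) beside control (right bar, blue), with exact Poisson 95% intervals; panel titles give CD147-LYTACs and control cell numbers. Among monocytes without Arg1, Gbp4 was the member at least 1.5-fold lower of the 6 tested, and in macrophages the control bars of Gbp3, Gbp4 and Iigp1 are higher in both panels.

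Per cell the members came up more often, and more of them together, in the types with high levels. Thinned to 1000 UMIs, 30.04% of CD147-LYTACs and 30.6% of control hepatoma cells held UMIs of at least 2 members, and 33.8% and 22.1% of regulatory T cells did. Neutrophils with at least 2 members made up 8.18% (92 of 1125) with CD147-LYTACs and 24.1% (33 of 137) in the control library. For monocytes the shares were 15.1% and 36.8% and for macrophages 8.36% and 26.7%. CD8 T cells stood at 3.23% and 3.68%, and conventional dendritic cells at 11.7% and 15.4%.

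Shares of cells for single members followed the levels. A UMI of Gbp2 was seen in 23.0% (20.6 to 25.6) of CD147-LYTACs and 34.3% (26.4 to 42.9) of control neutrophils after thinning, and in 38.7% and 53.5% before. In macrophages Iigp1 was seen in 3.75% (2.01 to 6.32) and 18.3% (11.9 to 26.4) of thinned cells, and Gbp2b in 0 of 347 and in 7.50% (3.49 to 13.8) of 120 thinned cells. That 0 allows, by 3 counts, a UMI in up to 0.865% of cells at the thinned depth, and is no limit on cells that express the gene: without thinning Gbp2b was seen in 3.77% and 23.4% of macrophages. CD8 T cells held Iigp1 in 0.484% and 0.633% of thinned cells and Gbp2b in 0 of 1858 and 0 of 2529.

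**Figure D4:**
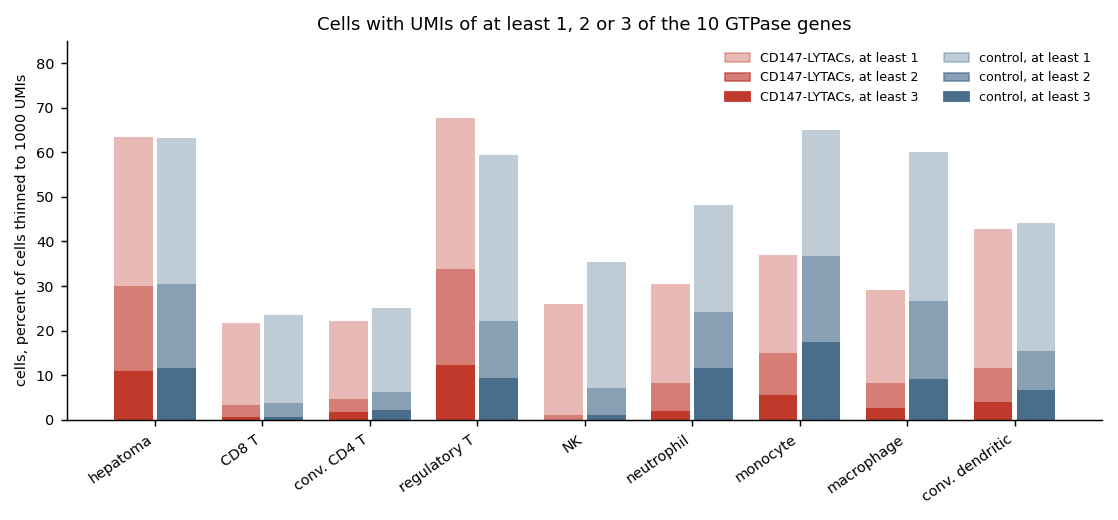
Percent of cells, each thinned to 1000 UMIs, with UMIs of at least 1 (light), 2 (middle) or 3 (dark) of the 10 GTPase genes, CD147-LYTACs (left, red) beside control (right, blue). The bars are nearly equal in hepatoma and CD8 T cells and shorter with CD147-LYTACs in neutrophils, monocytes and macrophages.

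Few of the other GBP and IRG genes were deep enough to compare in myeloid cells. Of 11 listed, 9 were measured. At least 1.5-fold lower were 1 of 2 tested in neutrophils and 0 of 1 in monocytes. Over all genes, 17.5% were that much lower in neutrophils, 9.36% in monocytes and 7.99% in macrophages. In macrophages 2 of 3 tested were at least 1.5-fold lower: Gm4951, an Iigp1 relative, at 63.9 and 215 CPM (-1.75), and Gbp8 at 41.2 and 92.2 CPM (-1.16). Irgm1, an IRG regulator, stood at 69.5 and 103 CPM in macrophages (-0.57), 75.3 and 132 CPM in neutrophils (-0.81) and 98.7 and 97.9 CPM in monocytes (0.01). Neutrophil Irgm2 was at 33.3 and 44.1 CPM (-0.41, -1.07 to 0.32). In hepatoma cells 0 of 9 passed 1.5-fold, with Gvin1 the lowest (13.8 and 17.7 CPM, -0.37) and Gbp9 the highest (10.2 and 10.1 CPM, 0.00), and in CD8 T cells 0 of 6 did. The shares of all genes lower and higher were 2.35% and 1.48% in hepatoma cells and 1.11% and 1.97% in CD8 T cells. Dendritic Gm4951 was at 39.6 and 96.8 CPM (-1.29), much like Iigp1 beside it.

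Genes of interferon-gamma signalling gave mixed values. Irf1, a factor that interferon-gamma induces, was 1.52-fold higher in macrophages, at 216 and 143 CPM (0.60, 0.33 to 0.88), and lower in monocytes, at 210 and 340 CPM (-0.70). In neutrophils Irf1 was at 206 and 257 CPM, in conventional dendritic cells 213 and 186 CPM, in hepatoma cells 266 and 264 CPM and in CD8 T cells 106 and 95.5 CPM. Conventional CD4 T cells held 89.998 and 99.2 CPM of it, regulatory T cells 171 and 193 CPM, and NK cells 116 and 149 CPM.

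Jak2, the receptor kinase, was at 282 and 466 CPM in monocytes (-0.73), and Irf8, a myeloid interferon factor, at 291 and 416 CPM in macrophages (-0.52). Socs3, a feedback inhibitor, was at 347 and 277 CPM in macrophages (0.33), 450 and 340 CPM in monocytes (0.40) and 376 and 293 CPM in neutrophils (0.36). Ifng, the cytokine itself, stood at 285 and 220 CPM in CD8 T cells (0.37, 0.31 to 0.43), 314 and 246 CPM in NK cells (0.35, -0.02 to 0.73) and 320 and 373 CPM in conventional CD4 T cells (-0.22, -0.39 to -0.05). Elsewhere Ifng stayed under 20 CPM in each type of both libraries.

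Some other interferon-gamma targets were also lower in myeloid cells. Of 20 listed, 10 of 14 tested in neutrophils, 7 of 15 in monocytes, 7 of 17 in macrophages and 2 of 16 in conventional dendritic cells were at least 1.5-fold lower, and 0 in these 4 types were higher. The shares of all genes that much lower were 17.5%, 9.36%, 7.99% and 7.57% in that order of cell types. Cxcl9, a chemokine that attracts T cells, was at 101 and 883 CPM in monocytes (-3.13) and 328 and 874 CPM in macrophages (-1.41). It was at 190 and 596 CPM in conventional dendritic cells (-1.65). In neutrophils, with only 41 and 17 UMIs, it was at 11.1 and 34.1 CPM (-1.62, -2.47 to -0.71). It was at 76.8 and 64.2 CPM in hepatoma cells (0.26) and under 10 CPM in the T and NK cells. The class II gene H2-Ab1 was at 911 and 3226 CPM in monocytes (-1.82), 1830 and 3940 CPM in macrophages (-1.11) and 67.7 and 249 CPM in neutrophils (-1.88), where Cd74 was at 211 and 642 CPM. In T cells H2-Ab1 went the other way, at 113 and 47.2 CPM in CD8 T cells (1.26) and 238 and 36.9 CPM in regulatory T cells (2.69). With H2-Aa and Cd74, named after their values were seen, it made 3 of 16 targets tested at least 1.5-fold higher in CD8 T cells and 3 of 13 in regulatory T cells, against 1.97% and 3.74% of all genes. Macrophage markers summed to 19.05 and 10.4 CPM in CD8 T cells and, as given above, were also higher in regulatory T cells with CD147-LYTACs; their part was not tested. Among myeloid cells, 14 of 14 targets tested in neutrophils and 15 of 15 in monocytes had ratios below 0. In macrophages 14 of 17 did, and in conventional dendritic cells 9 of 16. Not every target was 1.5-fold lower: Cd274, which encodes PD-L1, was at 2705 and 2785 CPM in neutrophils (-0.04). Cxcl10 was at 207 and 179 CPM in macrophages (0.20) but 64.3 and 141 CPM in conventional dendritic cells (-1.14).

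Genes induced by type I interferon gave values in both directions. Of 20 listed, 19 were measured, and 1 of 16 tested was at least 1.5-fold lower and 1 higher in neutrophils, with a median of 0.09, and 3 of 12 were lower and 3 higher in macrophages, with a median of 0.21. In monocytes 4 of 11 were lower and 1 higher. Their median there was -0.29, against -0.02 over all genes, and 9 of the 11 were below 0. The shares of all genes lower and higher were 17.5% and 7.91% in neutrophils, 7.99% and 7.13% in macrophages and 9.36% and 9.01% in monocytes. Isg15, a ubiquitin-like modifier, was at 766 and 909 CPM in neutrophils, 543 and 585 CPM in monocytes, 326 and 456 CPM in macrophages and 440 and 481 CPM in conventional dendritic cells. Its levels were 33.0 and 36.1 CPM in hepatoma cells, 63.1 and 67.1 CPM in CD8 T cells and 103 and 98.3 CPM in conventional CD4 T cells. Under 100 UMIs, it was at 80.5 and 42.5 CPM in regulatory T cells (47 and 30 UMIs) and 15.1 and 31.5 CPM in NK cells (6 and 15 UMIs). The lowest ratio was dendritic Ifit2 (18.5 and 89.6 CPM, -2.27), followed by hepatoma Ifit1 (2.37 and 8.52 CPM, -1.85). In hepatoma cells 5 of 19 tested were lower and 0 higher, against 2.35% and 1.48% of genes, and 12 of the 19 were below 0. Macrophage Ifit2 was at 41.7 and 87.3 CPM (-1.07). Among the highest were macrophage Rtp4 (49.6 and 21.8 CPM, 1.18) and monocyte Irf7 (129 and 51.3 CPM, 1.33).

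The genes that load these GTPases or act after them showed no shared direction. Of the 16 listed autophagy, ubiquitin and inflammasome genes, 0 of 15 tested were at least 1.5-fold lower and 1 was higher in macrophages, 0 of 11 lower and 1 higher in monocytes, and 2 of 13 lower in neutrophils. The shares of all genes lower and higher were 7.99% and 7.13% in macrophages and 9.36% and 9.01% in monocytes. In neutrophils 17.5% of all genes were lower. Lgals3, which encodes galectin-3, a lectin that marks broken vacuoles, was the higher one in macrophages (4299 and 2432.3 CPM, 0.82) and monocytes (4291 and 2251 CPM, 0.93). Atg7, an enzyme of autophagosome formation, was at 178 and 331 CPM in neutrophils (-0.90), and Nlrp3, the inflammasome sensor, at 2915 and 2420 CPM there (0.27). Gsdmd, the pore protein of pyroptosis, and Casp1, the inflammasome protease, were at 29.6 and 39.7 CPM and 29.6 and 38.7 CPM in macrophages.

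Across the 18 sums of library and cell type the members did not form a single pattern. Pearson's r of log2(CPM + 1) was highest for Gbp3 with Gbp7 (0.83) and Gbp2 with Tgtp1 (0.80) and lowest for Gbp2b with Igtp (-0.26), and each member's median r with the other members lay between 0.27 and 0.59. Sums of 1 library share its preparation, and those of 1 cell type share their cells, so these values are a description. The 10 genes outside the set most like the members' mean profile were Src, Sh3pxd2a, Gm4951, P2rx4, Dst, Arhgef11, Pikfyve, Vill, Sh3pxd2b and Laptm4b, with r between 0.87 and 0.78. Of 9681 genes ranked, Irgm1 ranked 21 (0.74), Irf1 30 (0.72) and Cxcl9 83 (0.68). The remaining measured GBP and IRG genes ranked between 206 (F830016B08Rik, 0.60) and 2732 (Gvin1, 0.19). Isg15 ranked 1710 (0.31) and Ifng 9560 (-0.64).

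The rarer cell types had too few cells for a comparison. Plasmacytoid dendritic cells (11 and 9 cells) held Iigp1 at 251 CPM (159 to 377) with CD147-LYTACs and 949 CPM (746 to 1190) in the control library. In B cells (17 and 29 cells) Gbp4 was at 43.7 and 171 CPM and Gbp5 at 34.98 and 118 CPM. Mast or basophil cells (30 and 19 cells) held 35.2 and 206 CPM of Gbp2, and Gbp2b was at 0 UMIs in all 3 types of both libraries.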

How the data were processed

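Cells of 2 libraries, 1 per group, were profiled by 10x Chromium single-cell sequencing. The authors deposited raw UMI counts per gene and barcode; the build is mm10 and Cell Ranger is version 3.0.2 per the submitters' processing notes and 7.1.0 per the file headers. The depth was 149812326 UMIs (median 5953 per barcode) with CD147-LYTACs and 143495332 (6731.5) in the control library. Barcodes with at least 500 UMIs, 300 genes and at most 15% mitochondrial UMIs were kept, the highest Scrublet scores were removed as doublets at 0.8% per 1000 barcodes (535 and 402), and cell types were gated by markers. UMIs were summed per type and library. Ratios carry exact binomial and levels exact Poisson or Clopper-Pearson 95% intervals, which cover counting error only; with 1 library a group no test was run. A gene was compared in a type from 100 UMIs over both libraries. The ratio step was tested on simulated data.

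The members and gene lists were chosen with earlier results of these data known. All members are named; of each other list the 2 highest and 2 lowest ratios per cell type described may be named, and Ifng, Irf1, Cxcl9 and Isg15 throughout; 1 gene of the interferon-gamma signalling list, and the counts over that list, are not reported here. Retnlg, Chil3, C1qa and the genes that split monocytes, macrophages, dendritic cells and CD8 T cells are markers. Alternatives were other filters, gates, clusters, scaling, a mean over cells and a fold of 2. Software was Python 3.11.15, numpy 2.4.6, scipy 1.17.1, pandas 2.3.3, scanpy 1.11.5, igraph 0.11.9 and matplotlib 3.10.9.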

Additional observations from a re-analysis of the deposited data

Results flagged for a closer look

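Gbp4 differed in direction between cell types under the same contrast. Its log2 ratio of CD147-LYTACs over control was 0.89 in regulatory T cells, against -2.54 in neutrophils, -1.87 in monocytes and -1.18 in macrophages. With 1 library a group the difference between these cell types was not tested.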

How the results depend on the processing

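Of the 20 ratios past 1.5-fold, 20 stayed past it with a mean over cells, with the stricter and the looser barcode filter and with scaling by the median ratio, 18 of 20 without doublet removal, 17 of 18 with the stricter gate and 14 of 15 with clusters in place of gates. Clusters turned 1 ratio round, Gbp6 in conventional CD4 T cells, to -0.28, and gave no monocyte cluster and so no monocyte value. At a fold of 2, the members lower were 3 in neutrophils, 3 in monocytes and 4 in macrophages, and those higher were 0 in conventional CD4 T and 0 in regulatory T cells. The count of higher members in conventional CD4 T cells was also 0 without doublet removal and 0 with clusters, and in regulatory T cells 0 with the stricter gate. The stricter gate gave 1 lower member in CD8 T cells and 2 in conventional dendritic cells, and the mean over cells gave 2 lower in conventional dendritic cells and 1 higher in macrophages. No share over all genes was set beside the counts at a fold of 2 or under these other settings. Those counts therefore cannot be weighed against a background. Monocytes without Arg1, an alternative chosen after seeing the data, gave 1 lower member. The cause was not tested for any of these. No paired analysis was possible because each group is 1 library. Depth limits the members under 100 UMIs, which were 10 of 10 in NK cells, 5 of 10 in neutrophils and 5 of 10 in conventional CD4 T cells. It also limits other types, where those deep enough were 6 of 10 in monocytes and 8 of 10 in macrophages. They were 7 of 10 in regulatory T cells, 7 of 10 in conventional dendritic cells and 8 of 10 in CD8 T cells.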
